A study of Homo sapiens with 2 samples.

Results

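The genes described here are 34 apolipoproteins, lipases, lipoprotein receptors, lipid transfer proteins and their regulators, chosen by symbol and function, with earlier results of the same arrays known. Of these, 32 had at least 1 array probe set whose annotation gives that symbol alone, 62 probe sets in all, out of 19775 genes with such a probe set on the array. Expression of LIPC and SORT1 was not analysed here. The cells were PLC8024, a human hepatocellular carcinoma (HCC) line, sorted by flow cytometry for absence of the surface protein CD133. The miR-130b culture received a lentivirus carrying miR-130b, although its source label says transfection, and the control culture received a lentivirus with an empty vector. Each culture gave 1 array of total RNA, so every value below compares those 2 arrays, without a replicate and without a test, and anything else that set the cultures apart cannot be told apart from the microRNA.

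Apolipoproteins are the protein part of lipoproteins, the particles that carry triglyceride and cholesterol through plasma. The liver builds very-low-density particles on APOB with the help of MTTP, which loads lipid onto the growing protein, and it secretes APOA1, the main protein of high-density particles. In plasma, lipases and transfer proteins remodel the particles, and receptors such as LRP1, VLDLR and SCARB1 take them or their lipid into cells. MicroRNAs lower the level or the translation of transcripts that pair with their seed, bases 2 to 8.

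The microRNA delivered to the cells is shown with its neighbour on the same chromosome, miR-301b, whose 3p arm shares the seed of miR-130b-3p. The sequences and their positions are those of RefSeq (GRCh38.p14), with the seed in capitals, and 6 of 2545 mature microRNAs in that table carry the seed AGUGCAA. The labels do not say which arm of miR-130b was meant, and the array values used here do not include the mature microRNA.
hsa-miR-130b-3p, chr22:21653354-21653375, plus strand: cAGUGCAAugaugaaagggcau
hsa-miR-130b-5p, chr22:21653316-21653336, plus strand: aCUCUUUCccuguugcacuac
hsa-miR-301b-3p, chr22:21653025-21653047, plus strand: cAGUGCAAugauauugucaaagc

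No measured member of the list differed by 1.5-fold in either direction. Values are the authors' log2 expression per probe set after RMA, a procedure that removes background and brings both arrays to 1 distribution. A gene was taken as measured where its brighter array reached a floor of 4.88 on the log2 scale, the median over all probe sets other than controls. The measured probe set brightest on average stands for it. Of the 24 measured members, 0 were lower by 1.5-fold or more with miR-130b, where 2.68% of all 13260 measured genes were, and 0 were higher by as much, where 0.294% of all were. None was 2-fold lower, against 1.52% of all measured genes. At those shares fewer than 1 of 24 genes would pass, so the zero counts do not set the members apart from other genes. The members' log2 differences, miR-130b minus empty vector, ran from -0.56 to 0.32 with a median of -0.06, against a median of 0.03 over all measured genes. Without probe sets ending in _x_at or _s_at the members' median was above that of all genes, at 0.10 over 11 members against 0.04, so its direction depends on the probe sets kept. Among those 11 only APOA1 changed sign, from -0.51 to 0.11.

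The only spread available is that between probe sets. Between probe sets of the same gene, the difference had a pooled SD of 0.202 on the log2 scale over 6047 genes. That SD holds no variation between cultures, and it is not the measurement error of a single probe set. Of the 24 members, 17 (70.8%) lay within 1 such SD of 0, against 72.0% of all measured genes. Beyond it, 5 of 24 members were lower, where 12.1% of all measured genes were, and 2 were higher, where 15.9% of all were. The 5 lower ones were VLDLR, MTTP, APOA1, LCAT and PLTP, and the 2 higher ones were APOH and APOD. VLDLR passed the floor with empty vector only, so it could count only as lower, and PLTP stood at the floor with miR-130b.

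**Figure D1:**
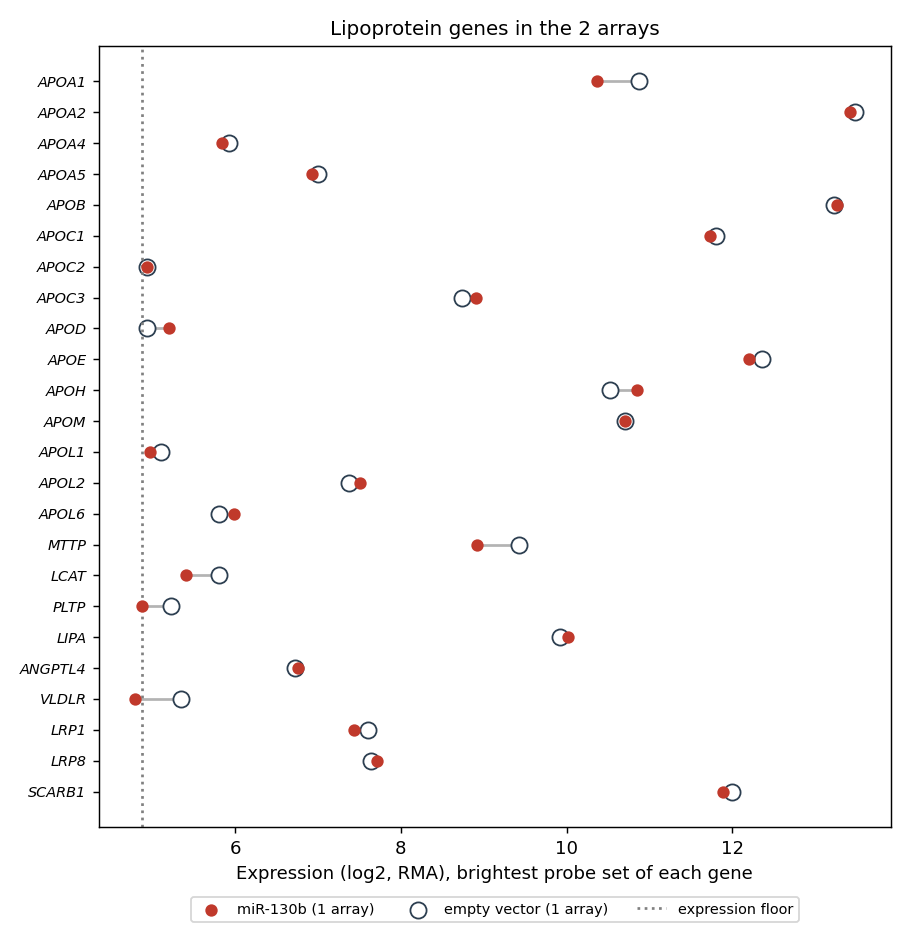
Expression of the 24 measured members in the miR-130b array (filled red) and the empty vector array (open), on the log2 scale, 1 brightest probe set per gene; the dotted line is the floor of 4.88. The circles lie close together for most genes and stand furthest apart for VLDLR, MTTP and APOA1, each lower in the miR-130b array; levels of different genes come from different probe sets and cannot be ranked.

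The sort marker and cell type were checked first. PROM1, which encodes CD133, read 6.07 with miR-130b and 9.19 with empty vector from 1 probe set, so its transcript was above the floor in both cultures of a fraction sorted as CD133-negative, and its part in the members' differences was not tested. The cells carried hepatocyte transcripts in both arrays. All 10 hepatocyte markers were measured, and their summed level on the log2 scale was 16.05 with miR-130b and 16.15 with empty vector. The carrier genes TTR and ALB, at -3.34 and -1.03 on the log2 scale, were the 2 hepatocyte markers at least 1.5-fold lower. Of all measured genes, 2.68% were that low. AFP and RBP4 followed at -0.57 and -0.43. Of the 10 markers 5 were lower and 5 higher, and the highest difference was 0.08. The other 2 measured probe sets of ALB had -1.56 and -2.38. Macrophages also make APOE, LPL and LIPA. Of 8 macrophage markers, 2 were measured, CD163 at 0.42 and LYZ at -0.32 on the log2 scale in their brightest probe sets. A dimmer LYZ probe set, below the floor with miR-130b, had -1.72. The macrophage genes CD14, MRC1, CSF1R, PTPRC and TYROBP lay below the floor in both arrays. The summed level of the 2 measured ones was 9.66 with miR-130b and 9.90 with empty vector, and its part in the differences was not tested. Stromal cells make APOD, APOE and LRP1. Of 6 stromal markers 4 were measured, and COL3A1 and ACTA2 lay below the floor in both arrays. The summed level of the 4 was 7.93 with miR-130b and 8.90 with empty vector. The collagen gene COL1A2 differed by -3.08 and -3.25 in its 2 probe sets, COL1A1 by values from -1.68 to 0.38 in 4, and DCN and PDGFRB by -0.08 each. The COL1A2 probe set at -3.25 and the COL1A1 ones at -0.88 and -1.68 were below the floor with miR-130b only. The floor thus fixed their sign. The COL1A2 probe set at -3.08 read 4.90 with miR-130b, just above the floor. The part of the stromal list in the members' differences was not tested either. Enterocytes share APOB, APOA4 and MTTP with liver. Their markers FABP2 and SI lay below the floor in both arrays, CDX2 differed by 0.05, and VIL1, which encodes the microvillus protein villin, had -1.92 in the brightest of 4 measured probe sets and -0.20 in the least changed. The summed level of CDX2 and VIL1 was 7.24 with miR-130b and 8.82 with empty vector, and its part in the differences was likewise not tested.

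Among the genes of particle assembly, lipid transfer and cholesterol esterification, the 3 measured members, MTTP, LCAT and PLTP, were all lower in the miR-130b array. Of all measured genes, 58.1% had a difference of 0 or higher. MTTP, the microsomal triglyceride transfer protein, had a level of 8.91 with miR-130b against 9.42 with empty vector on the log2 scale. Its difference of -0.51 is 1.42-fold, and 3.17% of all measured genes were as low or lower. MTTP rests on 1 probe set, so no other probe set checks it. LCAT, which esterifies cholesterol on high-density particles, had 5.41 with miR-130b and 5.80 with empty vector, a difference of -0.39. A dimmer LCAT probe set below the floor differed by -0.07. PLTP, which moves phospholipid between particles, had 4.88 with miR-130b and 5.22 with empty vector, a difference of -0.34 from 1 probe set. PLTP thus stood at the floor where it was lower. At that level residual background compresses a fold, and the size of the difference is uncertain either way. CETP, which exchanges cholesteryl ester for triglyceride, was below the floor in both arrays, at 3.90 with miR-130b and 3.79 with empty vector.

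APOB, the structural protein that MTTP loads, was not lower. Its brightest probe set read 13.27 with miR-130b and 13.22 with empty vector, a difference of 0.04 on the log2 scale. The other APOB probe set, at 9.94 with miR-130b and 9.42 with empty vector, was higher by 0.52, the highest difference of any measured probe set of the members. Both APOB probe sets were at or above their control value while the MTTP probe set was below its own, and the APOB probe sets disagreed on the size by more than the SD of 0.202.

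RNA quality measures also differed between the arrays. The ratio of 3' to 5' signal of ACTB was 2.41 with miR-130b and 1.95 with empty vector. That of GAPDH was 1.52 with miR-130b and 1.37 with empty vector. Its part in the lower values of MTTP, LCAT, PLTP and the other members was not tested.

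The upstream sequences of MTTP, VLDLR and APOH are shown because MTTP and VLDLR had the largest decreases among members with a promoter in the RefSeq table and APOH had the largest increase. Each is the 250 bases before a RefSeq transcript start (GRCh38.p14), read 5' to 3' on the gene's strand, and MTTP has 2 starts. Capitals mark matches, on either strand, to AGGTCA, the monomer site of many nuclear receptors, GTTAAT, the core of the HNF1 site, or TATAAA, the TATA box. The 3 motifs do not overlap in these windows.
MTTP, chr4:99574574-99574823, plus strand: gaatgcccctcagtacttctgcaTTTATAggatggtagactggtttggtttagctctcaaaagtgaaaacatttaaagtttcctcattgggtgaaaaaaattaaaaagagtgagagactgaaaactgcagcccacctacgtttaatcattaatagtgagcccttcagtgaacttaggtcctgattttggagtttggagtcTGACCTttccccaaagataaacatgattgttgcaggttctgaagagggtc
MTTP, chr4:99563880-99564129, plus strand: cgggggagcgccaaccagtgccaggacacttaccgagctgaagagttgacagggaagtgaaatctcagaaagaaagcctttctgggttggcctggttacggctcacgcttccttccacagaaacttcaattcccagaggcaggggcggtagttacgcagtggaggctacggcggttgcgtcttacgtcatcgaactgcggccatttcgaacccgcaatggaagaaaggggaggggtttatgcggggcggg
VLDLR, chr9:2621537-2621786, plus strand: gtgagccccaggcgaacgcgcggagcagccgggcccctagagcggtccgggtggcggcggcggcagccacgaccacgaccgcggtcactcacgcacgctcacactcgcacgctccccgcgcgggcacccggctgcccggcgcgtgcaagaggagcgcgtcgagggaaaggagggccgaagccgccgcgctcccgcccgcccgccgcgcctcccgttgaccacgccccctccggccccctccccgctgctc
APOH, chr17:66229416-66229665, minus strand: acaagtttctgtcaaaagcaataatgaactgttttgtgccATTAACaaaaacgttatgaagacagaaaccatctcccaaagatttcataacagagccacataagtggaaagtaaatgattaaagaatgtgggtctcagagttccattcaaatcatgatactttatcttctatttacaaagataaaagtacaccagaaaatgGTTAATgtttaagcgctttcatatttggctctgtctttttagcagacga

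The first MTTP window held the nuclear receptor motif on the minus strand, 50 bases before the start, and a minus-strand TATAAA 227 bases before it. The second MTTP window and the VLDLR window held none of the 3 motifs. APOH held the HNF1 core at 210 bases before the start on the minus strand and at 49 bases before it on the plus strand. Over 35116 RefSeq windows of that length, 12.1% held AGGTCA, 6.23% held GTTAAT and 10.7% held TATAAA. Among the 28 windows of the 20 members with an entry, 6 held AGGTCA, 3 held GTTAAT and 4 held TATAAA. These are letter matches, and the arrays measured no binding.

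The apolipoproteins of high-density particles were mixed. APOA1 had 10.37 with miR-130b and 10.88 with empty vector, a difference of -0.51 or 1.42-fold. A further APOA1 probe set differed by -0.41, with 10.37 with miR-130b and 10.78 with empty vector. Both carry the suffix _x_at, which marks probes that may bind other transcripts. The remaining APOA1 probe set, without that suffix and just above the floor, read 5.08 with miR-130b and 4.97 with empty vector, higher by 0.11. The decrease of APOA1 therefore rests on the probe sets that may cross-hybridise. APOA2, the other main protein of high-density particles, had 13.42 with miR-130b and 13.47 with empty vector, with -0.05 and -0.13 in its 2 probe sets. APOM, which carries sphingosine phosphate on these particles, had 10.71 in both arrays in its brightest probe set and differed by -0.10 in the other. APOF, a regulator of CETP activity, read 3.18 in both arrays, below the floor. Identical readings in both arrays occurred for 3 of the 62 probe sets of the members, and for 4.2% of all non-control probe sets.

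APOA5, APOA4, APOC3 and APOA1 stand next to each other in this order on 1 chromosome, and their differences had mixed signs. APOA5, an activator of triglyceride hydrolysis, had 6.93 with miR-130b and 7.0 with empty vector, a difference of -0.07. APOA4, made mainly by the intestine, had 5.84 with miR-130b and 5.93 with empty vector, a difference of -0.09. APOC3, an inhibitor of lipoprotein lipase, was higher by 0.18, with 8.91 with miR-130b and 8.73 with empty vector. Its other probe set, below the floor, was also higher by 0.18. APOA1, at -0.51, was the 1 gene of the 4 beyond the SD of 0.202.

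In the other cluster, APOE, APOC1 and APOC2 lay within the SD. APOE, the ligand of remnant receptors, had 12.20 with miR-130b and 12.36 with empty vector, a difference of -0.16. Its other probe sets differed by -0.31 and 0.01, so its 3 probe sets span more than the SD. APOC1, which hinders particle uptake, had 11.73 with miR-130b and 11.81 with empty vector, a difference of -0.07, with 0.02 in its other probe set. Both APOC1 probe sets carry the _x_at suffix. APOC2, the cofactor of lipoprotein lipase, read 4.94 in both arrays, just above the floor.

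Outside the clusters, 2 apolipoproteins were higher by more than the SD. APOH, a plasma protein that binds anionic phospholipid, had 10.85 with miR-130b and 10.53 with empty vector. That difference of 0.32, or 1.25-fold, was the largest increase among members, and 5.11% of all measured genes were as high or higher. The other APOH probe set was higher by 0.12. APOD, a lipocalin that binds small lipids, had 5.21 with miR-130b and 4.94 with empty vector, a difference of 0.27 from 1 probe set near the floor. LPA, the apolipoprotein of lipoprotein(a), and its relative LPAL2 were below the floor in both arrays, and their probes may share sequence. LPA read 3.28 with miR-130b and 3.36 with empty vector. The brighter LPAL2 probe set read 4.42 with miR-130b and 4.34 with empty vector.

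The APOL genes, which encode lipid-binding proteins, differed by less than the SD in their brightest probe sets. APOL1, the trypanosome-killing factor of human serum, had 4.97 with miR-130b and 5.11 with empty vector, a difference of -0.14. APOL2 had 7.51 with miR-130b and 7.37 with empty vector, higher by 0.14, with 0.10 in its other probe set. APOL6 had 5.98 with miR-130b and 5.81 with empty vector, a difference of 0.17, and a dimmer measured probe set differed by -0.18. APOL3 was below the floor, at 4.0 with miR-130b and 4.06 with empty vector.

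The plasma lipases LPL and LIPG lay below the floor in both arrays. LPL, the lipase of muscle and fat capillaries, read at most 4.02 with miR-130b and 4.27 with empty vector. LIPG, the endothelial lipase, read 3.42 with miR-130b and 3.69 with empty vector. At this level no change can be read for either gene. LIPA, the lysosomal acid lipase that frees cholesterol from internalised particles, had 10.02 with miR-130b and 9.92 with empty vector, a difference of 0.10. ANGPTL4, a secreted inhibitor of LPL, had 6.76 with miR-130b and 6.73 with empty vector, with differences of 0.03 and -0.06 in its 2 probe sets. ANGPTL8, which also restrains LPL, was below the floor, at 4.26 with miR-130b and 4.07 with empty vector. In all, 8 members with a probe set were below the floor in both arrays, with differences from -0.27 to 0.19 over 10 probe sets.

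Of the 4 measured receptors, VLDLR was the furthest from its control. VLDLR, a receptor for triglyceride-rich particles, had 4.79 with miR-130b and 5.35 with empty vector, from 1 probe set. Its difference of -0.56, or 1.47-fold, was the largest decrease among members and fell just short of 1.5-fold, which is 0.585 on the log2 scale. Of all measured genes, 2.88% were as low or lower. VLDLR lay under the floor with miR-130b and close to it with empty vector. Residual background compresses a fold at that level, and the size of the difference is uncertain either way.

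The other receptors differed by less. LRP1, a large endocytic receptor for remnants, had 7.44 with miR-130b and 7.61 with empty vector, a difference of -0.17, and its other measured probe set differed by -0.39. SCARB1, the receptor for high-density particles, had 11.89 with miR-130b and 11.99 with empty vector, a difference of -0.11. The measured SCARB1 probe sets had differences from -0.24 to -0.09. For 1 of the 4, only the empty vector array reached the floor, which fixed its sign. LRP8, a receptor for APOE and reelin, had 7.71 with miR-130b and 7.65 with empty vector, a difference of 0.07, and its other probe sets were higher by 0.14 and 0.23. Most of these differences lay within the SD.

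Several members had probe sets that pointed opposite ways. Of 13 members with at least 2 measured probe sets, 5 had probe sets of opposite sign: APOA1, APOC1, APOE, APOL6 and ANGPTL4. The matching share over all 6047 genes with at least 2 measured probe sets was not computed. The count therefore cannot be read as a trait of the members. The lower APOL6 and ANGPTL4 probe sets passed the floor with empty vector but not with miR-130b, so their sign was fixed by the floor. The same holds for the single probe set of VLDLR. Over all 42 measured probe sets, 17 were higher, 23 lower and 2 equal, from -0.56 to 0.52 on the log2 scale. The 23 include the probe sets of APOL6, ANGPTL4, VLDLR and SCARB1 that passed the floor with empty vector only. The matching shares over all measured probe sets were not computed, so these counts cannot show whether the members differ from other genes.

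**Figure D2:**
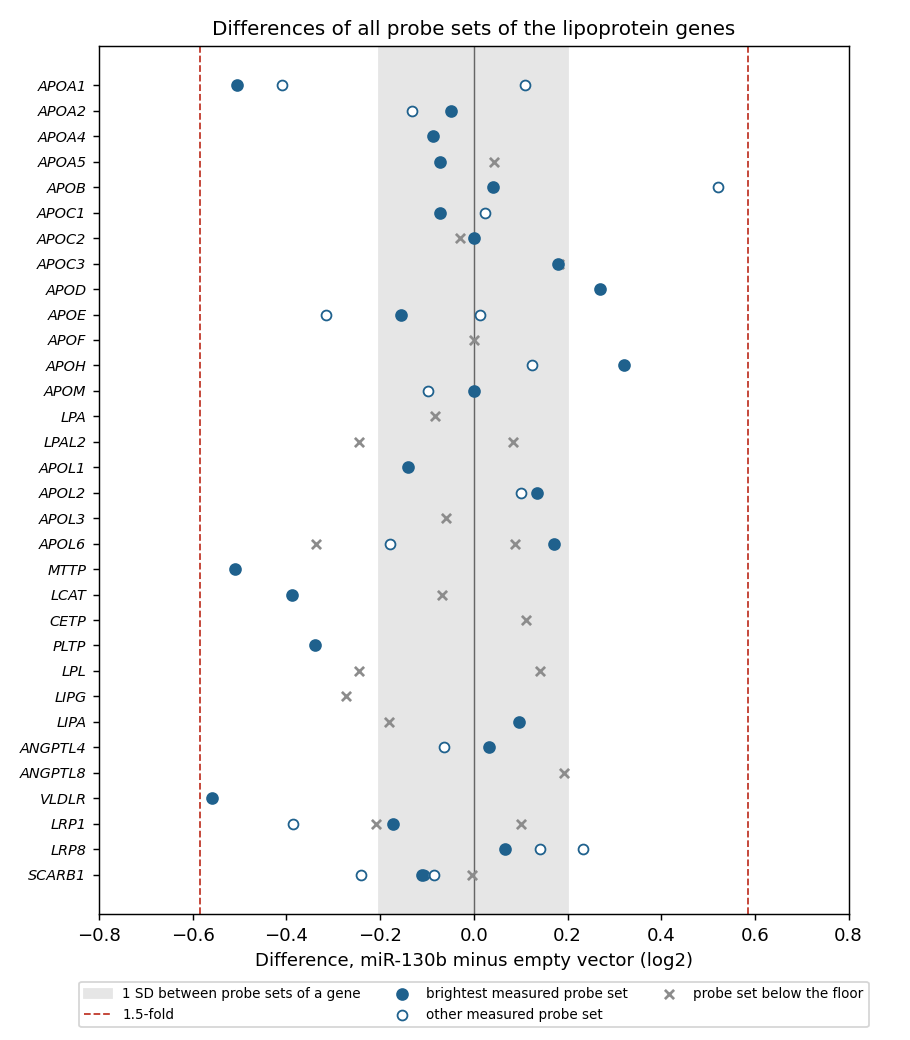
Log2 difference (miR-130b minus empty vector) of all 62 probe sets of 32 members, with the brightest measured probe set filled, other measured ones open and those below the floor as crosses. The grey band is 1 SD between probe sets of a gene (0.202) and the dashed lines mark 1.5-fold; no probe set crosses those lines, and the probe sets of APOA1 and APOB lie far apart.

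Other genes of lipoprotein metabolism held a few larger decreases. Of 103 such genes, 90 had a probe set of their own and 77 were measured. Lower by 1.5-fold or more with miR-130b were 5 (NR2F1, CES1, PON1, DGAT2 and CYP27A1), where 2.68% of all measured genes were. At least 1.5-fold higher were 0, where 0.294% of all were, each gene taken by its brightest probe set. NR2F1 and PON1 passed the floor with empty vector but not with miR-130b, so their sign was fixed by the floor. Without a floor the count was also 5, of 90 genes, where 1.91% of all genes were. The median difference of the 77 measured genes was 0.02, near that of all measured genes. The count of 5 fell to 2 of 53 when the floor was raised to the 75th percentile of all values, where 2.32% of all measured genes were as low. It fell to 3 of 64 without probe sets ending in _x_at or _s_at, where 2.58% of all were.

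In the assembly and secretion list, 2 of 22 measured genes were at least 1.5-fold lower, where 2.68% of all measured genes were. CES1, a carboxylesterase that hydrolyses stored lipid esters in liver, had 5.39 with miR-130b and 7.05 with empty vector, a difference of -1.66. DGAT2, which makes triglyceride for very-low-density particles, had 6.66 with miR-130b and 7.40 with empty vector, a difference of -0.75, with -0.48 in its other probe set. The lipid droplet coat gene PLIN2 differed by -0.40, and SEC24A, a coat protein of vesicles leaving the endoplasmic reticulum, was higher by 0.42. The other SEC24A probe sets were higher by 0.22 and by 0.77, the second above the floor with miR-130b only. A1CF, a cofactor of APOB transcript editing named after its values were seen, had -0.37 in its brightest probe set and -0.78 in the other. The list's median was 0.04.

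Among 14 lipase partners and plasma remodelling genes, PON1, an antioxidant esterase of high-density particles, had 4.16 with miR-130b and 5.15 with empty vector, a difference of -0.98 that ends below the floor. PNPLA3, LIPE and CLU differed by -0.38, -0.32 and -0.29. Of 6 measured cholesterol efflux genes, CYP27A1, the sterol hydroxylase that makes oxysterols, had 6.02 with miR-130b and 6.72 with empty vector, a difference of -0.70. The efflux pump ABCA1 had -0.18 in the brighter of 2 probe sets and -0.51 in the dimmer, while ABCG1 differed by 0.09 and STARD3 by 0.08. These lists had medians near 0.02.

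None of 11 measured genes of uptake and receptor regulation reached 1.5-fold in its brightest probe set. A dimmer _x_at probe set of LRPAP1, a chaperone of the LRP receptors, had -0.98, while its brightest had -0.01. LRP2, the endocytic receptor megalin, was higher by 0.43, with 8.33 with miR-130b and 7.90 with empty vector, and its other probe set was higher by 0.37. LRP4 and LRP6, relatives of LRP1, were higher by 0.31 and 0.18, and SORL1 differed by -0.15.

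Of 24 measured transcriptional regulators of these genes, 1 was at least 1.5-fold lower, where 2.68% of all measured genes were. NR2F1, the orphan nuclear receptor COUP-TFI, had 3.73 in the miR-130b array, below the floor, and 5.90 in the empty vector array, a difference of -2.16 from 1 probe set. NR5A2, a nuclear receptor of bile acid and cholesterol genes, differed by -0.49, with all 3 of its probe sets lower. FOXA3 differed by -0.33 and RXRA by -0.30, or 0.02 in the other RXRA probe set. The list's median was -0.02.

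**Figure D3:**
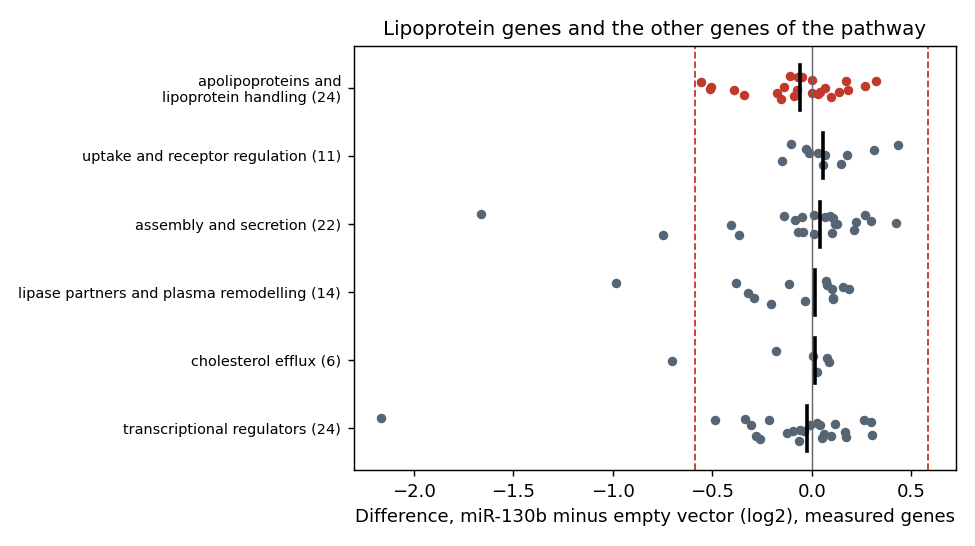
Log2 difference (miR-130b minus empty vector) of each measured gene among the 24 members (red) and the 5 lists of other lipoprotein genes (grey, number of genes in brackets), with the list median as a black bar and 1.5-fold as dashed lines. The medians lie between -0.06 and 0.05, and the points left of the dashed line at -0.58 are NR2F1, CES1, PON1, DGAT2 and CYP27A1.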

How the data were processed

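Expression was measured on 1 array each of the miR-130b and empty vector cultures. The authors deposited log2 values for 54675 probe sets, made with RMA per the submitters' processing notes, with version and settings not given in the sources used here. RMA corrects background, equalises the array distributions and summarises probes. It compresses folds of dim probe sets, and no detection call came with the values. The arrays' number limits the precision.

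GEO's platform annotation named 41091 of 54613 non-control probe sets with 1 symbol, 1801 with several and 11721 with none, and only those with 1 were used. For all 32 members with a probe set, the Entrez identifier gave the same symbol in RefSeq. Groups came from the sample titles. With 1 array per group no test was run. Folds of 1.5 and 2 are rules of size. The members, the gene lists and the naming rule (every member, plus up to 4 genes per list by absolute difference) were chosen with earlier results of these data known. A1CF and LRPAP1 were named outside that rule. The computation was checked on simulated arrays. The members' differences, and the counts and medians of the members and of the other lipoprotein genes, were recomputed where probe sets were left, with the floor dropped, with the floor raised to 6.98 (the 75th percentile), with probe sets averaged, with omission of _x_at and _s_at probe sets, and with loess centring at a span of 0.3. Tools were pandas 2.3.3, numpy 2.4.6 and statsmodels 0.14.6 under Python 3.11.15, with matplotlib 3.10.9 for plots.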

Additional observations from a re-analysis of the deposited data

Results flagged for a closer look

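Probe sets annotated with several symbols named no gene and entered no comparison. Among the 3 that include a member's symbol, 1 annotated to APOC2, APOC4 and their readthrough transcript was higher in the miR-130b array by 0.21 on the log2 scale, at 5.14 with miR-130b and 4.93 with empty vector, close to the floor. It was picked out because it was above its control value by more than the SD of 0.202 between probe sets of a gene. Another probe set with the same 3 symbols had 9.31 with miR-130b and 9.51 with empty vector, a difference of -0.20. The APOC2 readings from shared probe sets thus had opposite signs. The third, annotated to both PLG and LPA, had 4.66 with miR-130b and 4.96 with empty vector, a difference of -0.31. It passed the floor with empty vector only, which fixed its sign, and the rule for picking out took increases only.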

How the results depend on the processing

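No member with a value reached 1.5-fold under any of the 5 alternatives, which gave values for 32 members without a floor, 15 with the floor raised to 6.98, 11 without the suffixed probe sets and 24 with each of the others. VLDLR, LCAT and PLTP had none under the raised floor or without the suffixed probe sets. The largest difference under any alternative was -0.575, for VLDLR with loess centring, just short of 1.5-fold at 0.585. Of 98 recomputed differences of the 24 members, 95 moved by less than 0.202 on the log2 scale. The 3 others were APOA1, at -0.27 with the mean of its probe sets and 0.11 without the _x_at and _s_at probe sets, and APOB, at 0.28 with the mean. In 3 of the 98 the sign changed: APOA1 without the suffixed probe sets, and APOL6 and ANGPTL4 with the mean. The members' median ran from -0.07 to -0.05, except for 0.10 without the suffixed probe sets. The median of the other lipoprotein genes, 0.02, was -0.01 with the mean. The count of other lipoprotein genes at least 1.5-fold lower, 5 of 77, was 2 of 53 with the floor raised to 6.98 and 3 of 64 without the suffixed probe sets, where fewer genes were measured. The shares of all measured genes were 2.32% with the raised floor and 2.58% without the suffixed probe sets. The limits are 1 array per condition, no detection call, and readings near the floor for VLDLR, PLTP, APOD, APOC2 and APOL1.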
